A study of Mus musculus with 45 samples.

Results

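Organoids treated with 250 nM all-trans retinoic acid (RA) were compared with untreated organoids of the same age, 54 h after day 2, across all genes. The groups are given by the labels: the 3 RA-treated and the 3 untreated libraries of 54 h, 6 of the 45 of the series. The time point was picked from earlier results of these data as the one with the most lowered genes, so that its number of lowered genes beside those of other times is a description. Of the 54532 genes counted, 16413 passed the filter on low counts and were tested. All organoids were grown from wild-type R1 cells, which are mouse embryonic stem cells kept as a line, by clonal growth in Matrigel and N2B27 medium, a serum-free neural induction medium. RA was added at day 2, and the untreated organoids received none. The line stands for 1 genetic background, and each library holds the RNA of many organoids. The sources used here do not state whether RA was still present in the medium at 54 h. The labelled treatment protocol gives the dose in µM, and the concentration of the design text and of the paper's methods is used here. Some of its times also differ, though not that of 54 h, and the times of the sample titles are used.

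RA is a small lipid made from vitamin A that enters cells and binds nuclear receptors of the RAR family, which sit with RXR partners on DNA and switch on transcription of nearby genes when RA is bound. In the embryo, RA from the paraxial mesoderm gives the hindbrain and spinal cord their position along the head-to-tail axis, largely through the Hox genes, and acts against FGF signals. Embryonic stem cells that leave pluripotency pass through a stage like the epiblast, the tissue from which the neural plate forms, and RA speeds their neural differentiation.

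The 6 libraries held 21333860 to 30910618 counts, so that the detection floor of 3 counts lay at 0.0971 to 0.141 CPM (counts divided by library size, with TMM normalization over all 45 libraries). Libraries of the same group correlated at 0.994 to 0.9978 across genes and libraries of different groups at 0.9578 to 0.9709. Untreated replicate 3 belongs to a later series of library numbers than the other 5 libraries, and its correlations with the other untreated libraries were 0.9956 and 0.9973. RA replicate 1 was the lowest of the 3 RA libraries for 660 of the 983 lowered genes (67.1%), and the highest for 585 of the 1177 raised genes (49.7%). It is named below where a result rests on it. The labelled tissue was checked against markers of the neuroepithelium. Sox2, a transcription factor of neural progenitors and of pluripotent cells, stood at 199.6, 199 and 217 CPM in the untreated and 207, 199 and 201 CPM in the RA-treated libraries. The neural progenitor factor Sox1 stood at 113, 139 and 144 CPM and 161, 166 and 172 CPM. Both groups thus expressed these markers, and the Sox1 difference (log2 fold change 0.31, SE 0.079, adjusted p = 0.0067) was below the fold change threshold.

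At 54 h, 1177 genes were higher and 983 lower with RA at a Benjamini-Hochberg adjusted p under 0.01 from edgeR's quasi-likelihood test and a change of more than 1 on the log2 scale. These are 7.17% and 5.99% of the genes tested, and 9390 genes (57.2%) had an unadjusted p under 0.05. Genes past both limits are called raised or lowered, or said to have risen or fallen, in what follows. All log2 fold changes are RA against untreated, with the standard error (SE) of the fit. Without RA replicate 1 the counts were 1135 and 939, and without untreated replicate 3 they were 1077 and 889. The number of lowered genes was 819 at 42 h (4.96%) and 754 at 66 h (4.44%), and lay between 85 and 688 at 8 h, 18 h, 30 h and 78 h. The numbers of raised genes at 42 h and 66 h were 1237 (7.49%) and 1200 (7.06%). The median log2 fold change was 1.76 among raised genes and -1.71 among lowered genes, and 0.00179 over all genes tested. Changes above 5 on the log2 scale were seen in 21 raised and 26 lowered genes. In each of the called genes the 3 RA libraries did not overlap the 3 untreated libraries, as was also true of 32% of all tested genes with RA above and 27.7% with RA below. In RNA from whole organoids, fewer cells of a type and less RNA per cell cannot be told apart.

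**Figure D1:**
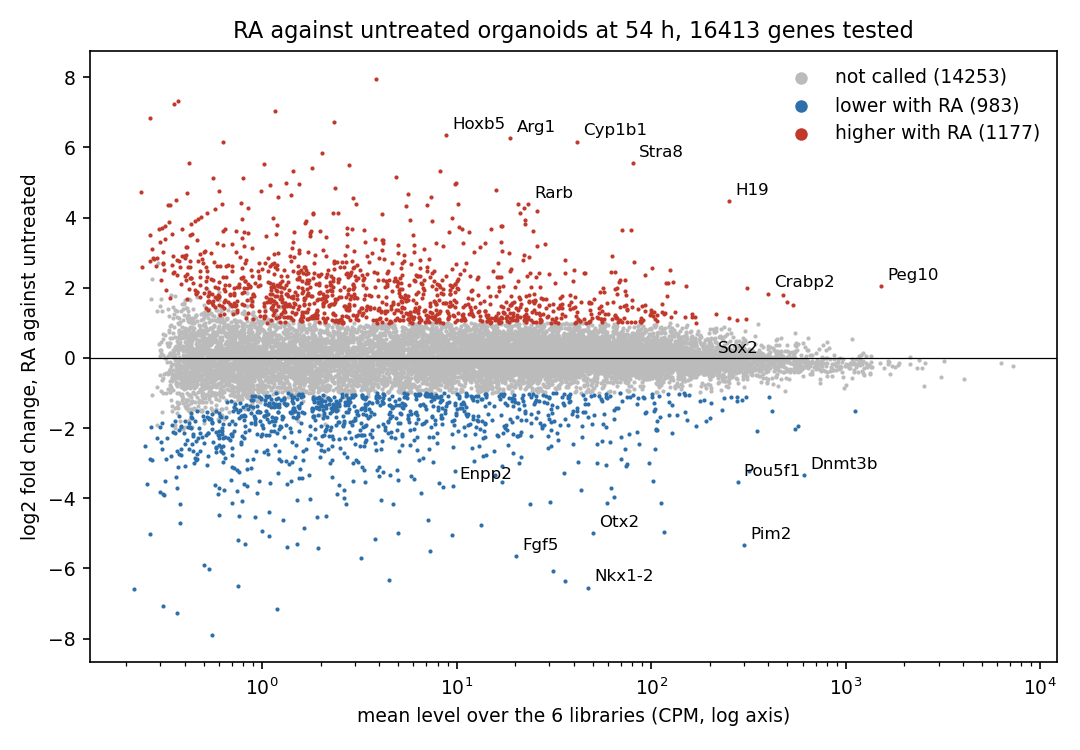
Log2 fold change of RA against untreated (vertical axis) and mean level in CPM (log axis) for the 16413 genes tested at 54 h, with the 1177 raised genes in red and the 983 lowered genes in blue. Nkx1-2 (-6.55) lies near the bottom and Hoxb5 (6.36) near the top, while the neural gene Sox2 lies at -0.034.

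The direct response to RA was examined first. The promoters of 2 genes are shown because they hold the classical response element, a DR5, in which short receptor motifs follow each other in the same direction with 5 bases in between. The 2 genes are Rarb, an RA receptor gene, and Cyp26a1, whose enzyme breaks RA down. The motif was AGGTCA in its usual form, with the variants AGTTCA and then GGGTCA and lastly GGTTCA also accepted, on both strands. The 250 bases before each start are given 5′ to 3′ on the strand of the gene, from RefSeq (GRCm38.p6), with the element in capitals.
Rarb, chr14:16575477-16575726, minus strand: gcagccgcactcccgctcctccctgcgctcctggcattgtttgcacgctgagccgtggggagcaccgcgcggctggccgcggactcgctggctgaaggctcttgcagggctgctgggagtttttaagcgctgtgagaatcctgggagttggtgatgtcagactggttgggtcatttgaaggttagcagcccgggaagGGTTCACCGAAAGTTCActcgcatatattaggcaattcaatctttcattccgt
Cyp26a1, chr19:37697558-37697807, plus strand: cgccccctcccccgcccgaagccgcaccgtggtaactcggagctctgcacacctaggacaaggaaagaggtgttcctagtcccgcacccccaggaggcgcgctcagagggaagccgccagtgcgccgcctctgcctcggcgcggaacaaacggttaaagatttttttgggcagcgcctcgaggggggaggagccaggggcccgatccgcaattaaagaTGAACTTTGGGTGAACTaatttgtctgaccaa
The element began 53 bases before the start of Rarb and 32 bases before that of Cyp26a1, where it is read on the opposite strand. A DR5 was found in 29 of 32851 promoters of this length (0.0883%), and in 6 of the 14838 promoters of genes tested at 54 h. The sites in these 6, each read on the strand that carries it, were as follows.
Rarb: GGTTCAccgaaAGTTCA
Cyp26a1: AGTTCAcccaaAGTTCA
Blvrb: AGTTCAaagccAGTTCA
Cfap45: AGTTCAagccaGGTTCA
Prokr2: AGGTCAcaacgGGTTCA
Syndig1: GGGTCAcccctAGTTCA
Of these, Rarb was raised and the others were not called, with log2 fold changes of 0.69 for Cyp26a1, -0.57 for Blvrb, 0.28 for Cfap45, -0.16 for Prokr2 and 0.83 for Syndig1. Neither printed promoter held such motifs 2 bases or 1 base apart (DR2 and DR1), which were found in 0.174% and 0.164% of all promoters. A DR2 lay before the raised genes Slc25a21 and Tinagl1 (0.194% of the promoters of raised genes) and the lowered gene Slc7a7 (0.112% of those of lowered genes), against 0.0741% of the promoters of all tested genes. A DR1 lay before the raised gene Akt1 (0.097%) and before 0 lowered genes, against 0.155% of the promoters of all tested genes. A match describes these letters and not a bound site.

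Rarb stood at 1.97, 1.76 and 2.52 CPM in untreated and 55.3, 40.7 and 38.2 CPM in RA-treated organoids (4.39 on the log2 scale, SE 0.18). Stra8, a gene named for its stimulation by RA and known for its part in the entry into meiosis, rose from 4.26, 2.48 and 3.21 to 137, 169 and 165 CPM (5.56, SE 0.15, adjusted p = 1.4e-09). In both genes the groups were far apart compared with the spread of the replicates. Cyp26a1, with the same element, stood at 5.41, 4.51 and 5.82 and 7.74, 9.73 and 8.19 CPM, a difference of 0.69 (SE 0.14) that was under the fold change threshold. The other enzymes that degrade RA were lower with RA: Cyp26b1 fell from 8.62, 12.5 and 15.97 to 1.19, 2.76 and 2.21 CPM (-2.59, SE 0.28). Cyp26c1 fell by 2.15 on the log2 scale. Dhrs3, which turns retinal back into retinol and so lowers RA production, was raised (1.37, SE 0.17). Of the enzymes that make RA, Aldh1a1 rose from 0.229, 0.319 and 0.262 to 4.35, 6.01 and 7.09 CPM (4.38) and Aldh1a2 by 2.39. In all, 3 of 11 tested genes of RA synthesis and breakdown were raised and 2 lowered. Among 16 tested receptors, carriers and cofactors of RA, a list that also holds Stra8, 5 were raised and 2 lowered. Crabp2, the carrier that hands RA to its receptors, was among the most abundant raised genes, at 142, 175 and 201 CPM without and 647, 614 and 607 CPM with RA (1.83, SE 0.10). The retinol uptake receptor gene Stra6 and the corepressor gene Nrip1 rose by 1.54 and 1.44. The lowered members were receptor genes: Rarg fell by 1.49, and Rxrg by 5.04, from 18.3, 17.5 and 19.4 CPM to 0.462, 0.559 and 0.664 CPM. Rarb thus rose and Rarg and Rxrg fell in the same libraries. Exons of Top2b and Gm48162 lie opposite 38.4% of the exonic bases of Rarb, which can share reads with them if counting was not by strand.

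Hox genes encode the homeodomain factors that specify position along the head-to-tail axis, and within each cluster genes with higher numbers are used further back. At 54 h, 13 of the 14 raised Hox genes belonged to paralogue groups 3 to 8, as did most of the tested Hox genes. In the B cluster, 6 of 9 tested genes were raised and 1 was lowered. Hoxb5 rose from 0.183, 0.240 and 0.196 to 18.1, 15.4 and 18.97 CPM (6.36, SE 0.20, adjusted p = 3.2e-09). Hoxb4 rose from 1.605, 2.32 and 2.72 to 45.1, 38.3 and 36.6 CPM (4.13). Hoxb6, Hoxb8, Hoxb3 and Hoxb7 rose by 4.68, 3.19, 3.25 and 2.93. At the anterior end of the same cluster, Hoxb1, a gene of the hindbrain's rhombomere 4, was lower with RA, at 46.5, 51.2 and 62.6 CPM in untreated and 14.02, 28.3 and 26.9 CPM in treated organoids (-1.23, SE 0.20). Without RA replicate 1, the lowest of these, Hoxb1 was -0.99 and not called. Hoxb2 differed by 0.53 and Hoxb9, at the other end, by 0.28 (SE 0.20), with overlapping libraries. In the A cluster 3 of 7 tested genes rose, namely Hoxa4 (3.38), Hoxa5 (2.02) and Hoxa3 (1.28), and Hoxa9 fell, from 0.734, 0.998 and 1.64 to 0.0770, 0.164 and 0.185 CPM (-2.97, SE 0.47). In the C cluster Hoxc4 and Hoxc5 rose, the latter from 0.183, 0.679 and 0.851 to 17.8, 19.7 and 19.4 CPM (4.95), while the 4 other genes tested were not called. Hoxc8 had a log2 fold change of -1.09 and Hoxc9 of -0.92, neither past the test, though Hoxc8 was called lowered by DESeq2 and without RA replicate 1. In the D cluster Hoxd3 rose from 0.275, 0.519 and 0.360 to 18.6, 15.3 and 14.1 CPM (5.34, SE 0.22), and Hoxd1 and Hoxd8 by 3.08 and 2.69. In total 14 of 26 tested Hox genes were raised and 2 lowered, against 7.17% and 5.99% of all genes, and the 13 other genes of the lists had at most 15 counts in any of the 6 libraries. Among the TALE cofactors that bind DNA with Hox proteins, Meis1 and Pbx2 rose (1.79 and 1.25), and 7 others of the 9 tested were not called. Antisense transcripts overlap the exons of Hoxb3 (52.9%), Hoxb2 (27.3%) and Hoxa3 (25.4%).

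**Figure D2:**
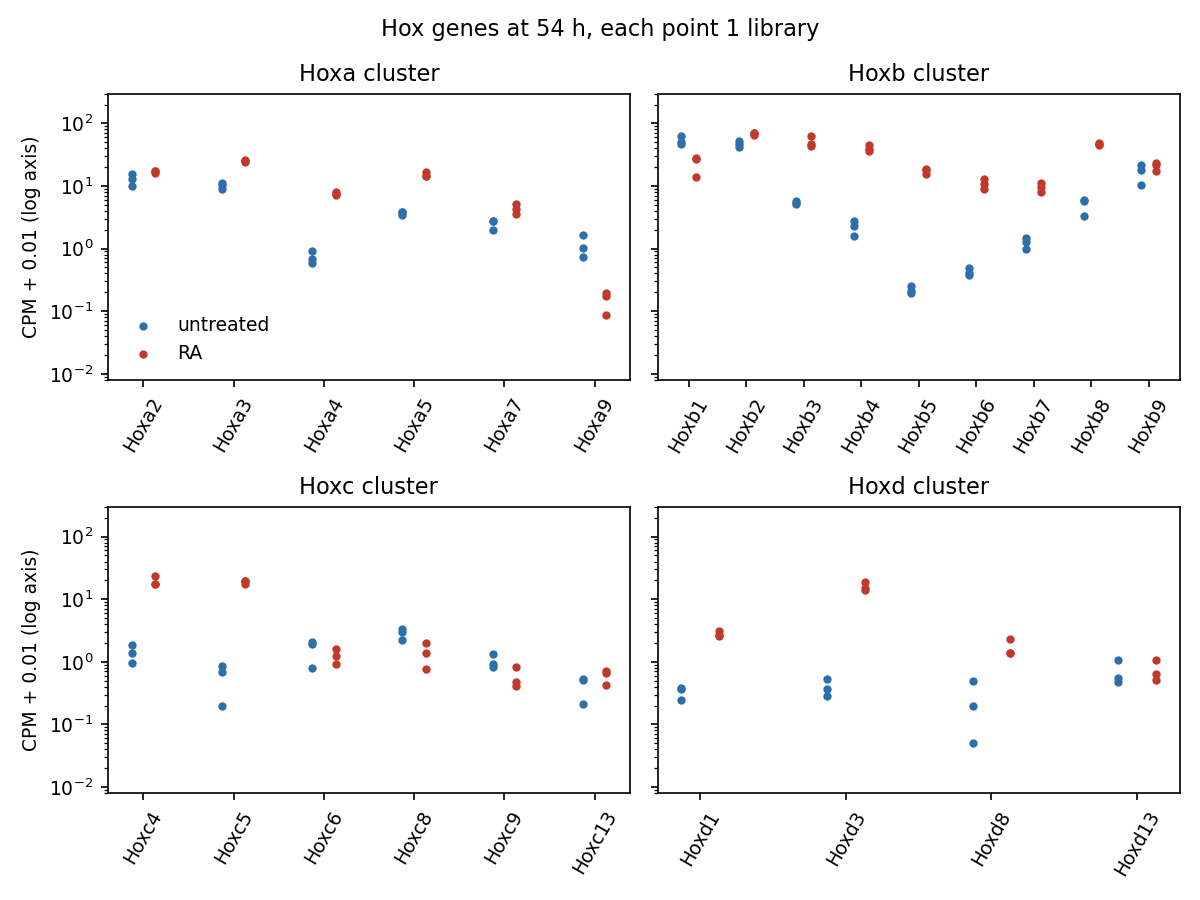
Levels of 25 of the 26 tested Hox genes at 54 h in CPM + 0.01 (log axis), in cluster order, with each of the 3 untreated (blue) and 3 RA-treated (red) libraries as a point. Red points lie above blue ones at Hoxb3 to Hoxb8, Hoxa3 to Hoxa5, Hoxc4, Hoxc5 and Hoxd1 to Hoxd8, and below them at Hoxb1 and Hoxa9.

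Genes of the segments of the hindbrain moved both ways. Of 21 tested, 8 were raised and 7 lowered. This list shares members with the Hox lists, among them Hoxb4. Egr2, the zinc finger factor of rhombomeres 3 and 5, fell from 6.79, 8.82 and 11.1 to 0.193, 0.624 and 0.664 CPM (-4.16, SE 0.31). Epha4, a receptor of the same segments, fell by 1.27, and Gbx2, a factor of the anterior hindbrain, fell by 1.87. Of the raised members, the zinc finger gene Zfp703 rose from 18.9, 26.6 and 26.5 to 90.7, 90.3 and 89.9 CPM (1.89, SE 0.10) and its relative Zfp503 by 2.16, and outside this list the orphan nuclear receptor gene Nr2f1, a known RA-induced gene, rose by 2.42. Of 19 tested genes of the midbrain and its border with the hindbrain, 7 were raised and 7 lowered. Otx2, the factor that marks the forebrain and midbrain and also the epiblast, fell from 100.6, 97.1 and 93.5 to 0.847, 3.75 and 4.50 CPM (-4.996, SE 0.28, adjusted p = 1.9e-07). Fgf8 and Fgf17, signals of that border, fell (-2.49 and -2.32), and Pax5 fell by 2.58. The raised members of the midbrain list reached 6.73, the change of Wnt1, which is given below with the dorsal genes. Of 18 tested genes of the forebrain 3 were raised (5 by DESeq2) and 4 lowered, and 15 others, among them Six3 and Rax, did not reach the minimum count. Of 19 tested genes of the posterior growth zone 7 fell, 4 rose and 8 were not called. Nkx1-2, a marker of the neuromesodermal progenitors that extend the trunk, had the largest fall of the genes named by size, from 89.9, 94.3 and 95.9 to 0.270, 0.854 and 1.88 CPM (-6.55, SE 0.25). Wnt8a, also of that region, fell from 218, 206 and 213 to 6.89, 15.2 and 14.7 CPM (-4.12). The homeobox gene Cdx2 fell by 1.34, a call that was lost when all 45 libraries were fitted together. Wnt3a and Mnx1 of the same list rose, by 3.71 and 2.29.

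Genes that pattern the neural tube from ventral to dorsal were raised at both ends. The ventral floor plate is the source of Sonic hedgehog. Of 15 tested floor plate and ventral genes 9 were raised and 0 lowered by edgeR (1 at an unadjusted p under 0.05, 0 by DESeq2). Foxa2, the factor that starts the floor plate, rose from 0.459, 1.04 and 0.425 to 13.4, 13.1 and 13.6 CPM (4.37, SE 0.23, adjusted p = 1.4e-07), and Foxa1 rose by 4.58. Shh itself had 3 counts in the untreated libraries together and 164 in the RA-treated libraries, a ratio of 50.7 (95% exact interval from counting error only, 17 to 248). Its level with RA was low, at 3.43, 1.31 and 1.29 CPM, and an RNA on the opposite strand overlaps 28.3% of its exonic bases. The ventral progenitor gene Nkx6-1 did not pass the test (0.65, SE 0.33). Among genes of the Hedgehog pathway 9 of 19 tested were raised and 0 lowered by edgeR (0 at an unadjusted p under 0.05 and 0 by DESeq2). The targets Ptch1, Gli1 and Hhip, which report on active signalling, rose by 1.26, 1.46 and 2.05. Ptch1 stood at 91.8, 95.9 and 94.6 CPM without and 208, 239 and 237 CPM with RA. The coreceptor genes Boc, Gas1 and Cdon, which are known to be repressed by the pathway, rose as well, by 1.56, 1.56 and 1.36.

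On the dorsal side, 13 of 22 tested genes were raised and 4 lowered. Wnt1, a signal of the dorsal midline, had 3 counts over the untreated and 396 over the RA-treated libraries, a ratio of 122 (95% exact interval from counting error only, 41.6 to 596). The roof plate factors Msx1 and Lmx1a rose by 3.60 and 3.49, and the dorsal progenitor factor Pax7 by 1.26. Msx1 stood at 1.47, 1.80 and 1.90 CPM without and 11.2, 25.2 and 27.7 CPM with RA. The lowered members included Olig3, of the dorsal progenitors, and the zinc finger genes Zic2 and Zic5, which are also expressed in the epiblast. Zic2 fell from 140.4, 153 and 144 to 51.1, 64.2 and 67.9 CPM (-1.27) and Zic5 fell by 1.68, whereas Zic1 rose by 2.15. Of intermediate progenitor genes, Dbx1 rose from 2.20, 3.23 and 2.55 to 76.0, 39.7 and 32.2 CPM (4.19, SE 0.33). In the same libraries 14 of 29 tested genes of the BMP pathway, a dorsalizing signal, were raised and 2 lowered. The ligands Bmp2 and Bmp7 rose by 3.63 and 1.78. Id3, a direct BMP target, rose from 19.6, 20.6 and 22.7 to 134, 140.4 and 152 CPM (2.75, SE 0.073, adjusted p = 1.4e-09), and Id1 rose by 2.43. Of the antagonists, Nog rose (3.78), while Fst fell from 109, 107 and 119 to 3.47, 7.43 and 8.38 CPM (-4.13, SE 0.20).

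Of 45 tested genes of the Wnt pathway 15 were raised and 5 lowered. The secreted antagonist gene Sfrp5 rose from 1.93, 2.08 and 2.45 to 41.7, 42.8 and 42.9 CPM (4.27, SE 0.099), and its relative Sfrp1 fell from 244, 318 and 326 to 89.8, 88.6 and 81.9 CPM (-1.79). The receptor gene Fzd8 rose by 2.31. Lef1, a transcription factor of the pathway that is itself a target, fell from 111, 127 and 109 to 4.31, 12.2 and 10.4 CPM (-3.69, SE 0.24). Axin2, the most widely used readout of canonical Wnt signalling, had a log2 fold change of 0.23 (SE 0.073, adjusted p = 0.022). The 2 targets thus did not move together.

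Of 20 tested epiblast genes 18 were lowered and 0 raised by edgeR (0 at an unadjusted p under 0.05 and 0 by DESeq2), and the summed level of the list was 3704 to 3920 CPM in untreated and 846.4 to 1042 CPM in RA-treated organoids. Fgf5, the marker of the postimplantation epiblast, fell from 44.9, 36.7 and 37.9 to 0.270, 0.953 and 1.14 CPM (-5.64, SE 0.23). Pim2, a kinase gene, fell from 577, 594 and 590.0 to 11.6, 16.04 and 16.6 CPM (-5.33, SE 0.11). Pou3f1 and Foxd3 fell (-3.97 and -3.84). In these 4 genes every RA library lay below every untreated one. Of 28 tested pluripotency genes 10 were lowered and 1, Tbx3, was raised (2.41). Pou5f1, which encodes the core factor Oct4, fell from 528, 477 and 528 to 27.9, 51.1 and 55.1 CPM (-3.53, SE 0.19, adjusted p = 1.7e-07). Its day 2 level was 984.2 CPM (mean of 3), above that of both groups at 54 h, a difference that was not tested. L1td1, an RNA-binding protein of stem cells, and Tdh, an enzyme they depend on, fell (-3.23 and -2.87). Nanog, a partner of Oct4, stood at 96.4, 94.5 and 101.0 CPM without and 36.04, 64.6 and 70.6 CPM with RA, a difference of -0.79 under the fold change threshold. Without RA replicate 1, 19 epiblast and 9 pluripotency genes were lowered.

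Nodal and FGF are the signals that hold cells in the epiblast. Of 12 tested Nodal pathway genes 6 were lowered and 0 raised by edgeR (5 at an unadjusted p under 0.05, 0 by DESeq2). Tdgf1, the coreceptor of Nodal, fell from 148, 123 and 127 to 5.51, 17.5 and 24.5 CPM (-3.07, SE 0.34), and Nodal, its target Lefty1 and the factor gene Foxh1 fell (-2.11, -1.72 and -2.06). Of 30 tested genes of FGF signalling and its feedback 15 were lowered and 5 raised. The ligand gene Fgf4 fell from 79.6, 69.9 and 73.7 to 3.89, 12.03 and 12.8 CPM (-2.96, SE 0.28). The transcription factors Etv4 and Etv5 and the inhibitors Spry2, Spry4 and Il17rd, all switched on by ERK, fell (-2.51, -2.04, -2.46, -1.75 and -1.78). Spry2 stood at 147, 145 and 149 CPM without and 16.4, 31.2 and 33.3 CPM with RA. The raised members were the receptor genes Fgfr2, Fgfr3 and Fgfr4 (1.51, 2.03 and 2.59), the adhesion gene Flrt3 (1.62) and Egr1 (1.08), which is also switched on by ERK. Egr1 was 0.99 and not called without RA replicate 1. The lowered members thus included ligands and most feedback genes of the list, and the raised ones 3 receptors. Of 8 tested enzymes of DNA methylation 3 were lowered. Dnmt3b, the methyltransferase that sets new marks in the epiblast, was among the 5 most abundant lowered genes, at 1051, 1158 and 1116 CPM without and 84.1, 125 and 124 CPM with RA (-3.34, SE 0.13). Dnmt3a and the demethylating enzyme gene Tet1 fell (-1.13 and -1.29). The maintenance enzyme gene Dnmt1 had a log2 fold change of 0.36.

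**Figure D3:**
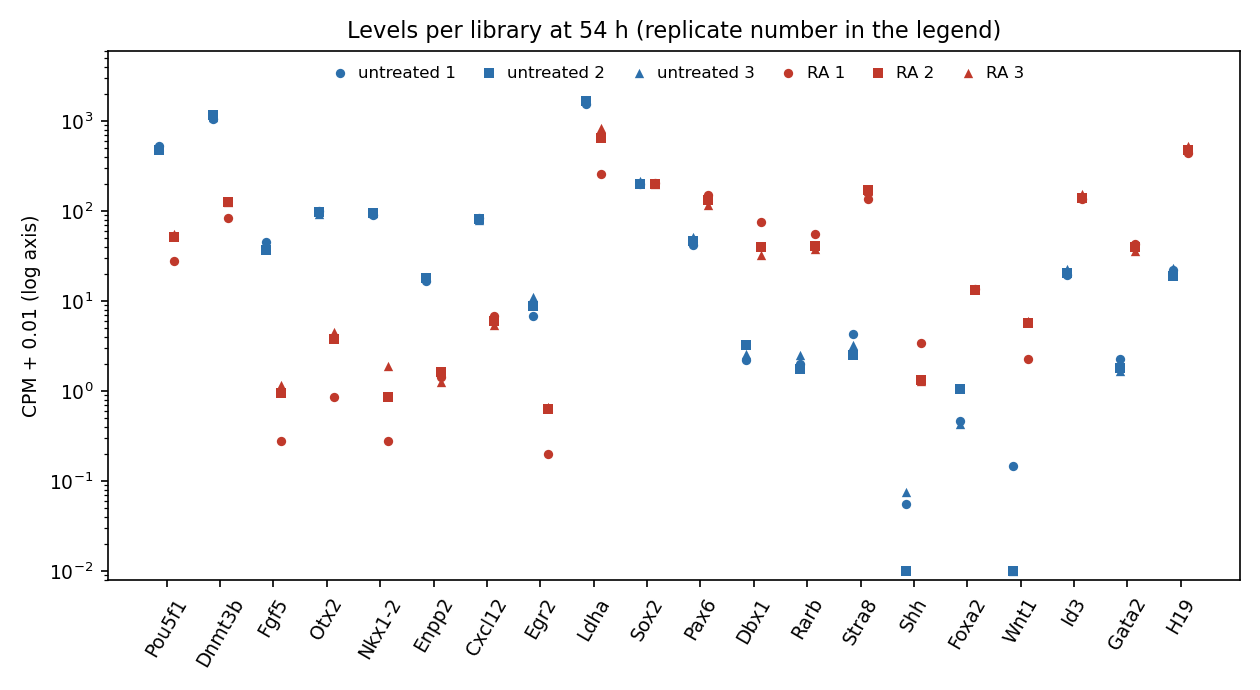
Levels of 20 genes in each of the 6 libraries at 54 h, in CPM + 0.01 (log axis), with untreated libraries in blue, RA-treated libraries in red and the replicate number as the marker. From Pou5f1 to Ldha the RA-treated libraries lie below, at Sox2 the groups coincide, and from Pax6 to H19 they lie above, and RA replicate 1 (red circle) is the lowest RA library at Ldha, Otx2, Fgf5 and Nkx1-2.

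Genes of glycolysis and hypoxia were among the lowered genes, and the RA libraries differed among themselves. Of 32 tested 10 were lowered and 1 raised, and 7 and 1 without RA replicate 1. Ldha, which turns pyruvate into lactate, stood at 1557, 1669 and 1722 CPM in untreated and 255, 651 and 837 CPM in RA-treated organoids (-1.52, SE 0.30). The lactate exporter gene Slc16a3 stood at 259, 279.8 and 271 and 20.8, 76.9 and 118 CPM (-1.93, SE 0.41). The hypoxia-induced genes Bnip3 and Pdk1 fell (-1.75 and -1.47), and Pgk1, a glycolytic enzyme gene, fell by 1.12. The summed level of the list was 14020 to 15280 CPM in untreated organoids and 6446, 9637 and 11140 CPM in RA-treated ones, with replicate 1 the lowest. Without that replicate the log2 fold changes were -1.18 for Ldha, -1.50 for Slc16a3 and -0.90 for Pgk1, which was then not called. Slc16a3 was not called by DESeq2 either, nor without untreated replicate 2 or 3. Over all genes, 939 were lowered without this replicate, against 983 with it.

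Of 20 tested markers of the neuroepithelium, the progenitor layer of the neural tube, 10 were raised and 3 lowered. Pax6, a neural progenitor factor, rose from 41.8, 46.4 and 51.3 to 149, 131 and 117 CPM (1.49, SE 0.098, adjusted p = 5.7e-07). Cdh2, the neural cadherin, rose by 1.18, and the Notch target Hes5 and the cilium factor Rfx4 by 1.47 and 1.61. The POU factor genes Pou3f2 and Pou3f3 rose by 1.81 and 3.63, in contrast to Pou3f1. Fabp7, a fatty acid carrier of radial glia, fell by 1.09 (-0.94 and not called without RA replicate 1), and Nes, the intermediate filament gene of progenitors, had a difference of 0.68 that was under the fold change threshold. The summed level of the list was 1196 to 1425 CPM without and 1828 to 2065 CPM with RA.

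Neuron differentiation genes moved both ways. Of 37 tested 13 were raised and 8 lowered. The proneural genes Neurog1 and Neurog2, which commit progenitors to become neurons, rose by 5.49 and 3.45. Neurog1 stood at 0.0459, 0.160 and 0.131 CPM without and 6.20, 5.13 and 5.09 CPM with RA. The lowered members included Stmn2, which regulates microtubules in axons and fell from 169.8, 190.1 and 203 to 9.90, 19.6 and 20.3 CPM (-3.51, SE 0.20). Ebf1 and Neurod1, factors of young neurons, and the synaptic gene Snap25 fell (-3.57, -2.18 and -2.81), and the neurofilament genes Nefl and Nefm fell (-1.62 and -1.58). Nefl and Nefm overlap each other on opposite strands. The pan-neuronal tubulin gene Tubb3 did not differ by more than the spread, at 50.9, 52.3 and 59.0 and 55.9, 58.8 and 55.1 CPM. Of 52 tested guidance genes 13 were raised and 7 lowered. The receptor genes Unc5a and Nrp1 and the repellents Slit1 and Slit2 rose by 3.78, 3.27, 2.98 and 2.34. The ephrin receptor genes Epha1 and Epha2 and the semaphorin gene Sema6a fell (-3.27, -3.01 and -3.06). Unc5a stood at 2.20, 2.28 and 2.42 CPM without and 40.5, 28.9 and 26.6 CPM with RA.

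Markers of other cell types that the organoids could hold were measured as whole lists. Of 12 tested genes linked to trophoblast 10 were raised and 2, Cdx2 and Eomes, were lowered. Gata2, a transcription factor also used in ventral neurons, rose from 2.25, 1.80 and 1.67 to 43.05, 39.6 and 35.98 CPM (4.38, SE 0.13), and Plac1 and Ascl2 rose by 4.32 and 2.35. The list's summed level was 83.72 to 84.74 CPM without and 393.6 to 432.8 CPM with RA, while the defining placental genes Prl3d1 and Prl2c2 had 0 counts in the 6 libraries, Psg17 at most 1 and Tpbpa at most 9. Simple epithelial keratins, which share members with that list, rose in 8 of 13 tested genes with 0 lowered by edgeR (1 at an unadjusted p under 0.05, 0 by DESeq2). Krt8 and Krt18, the keratins of simple epithelia, rose by 2.46 and 2.44, and Krt7 rose from 2.75, 2.16 and 3.24 to 49.7, 37.7 and 39.2 CPM (3.93). Of 11 tested endoderm markers 6 were raised and 1 lowered, the raised ones including Sox17, at 0.138, 0.359 and 0.262 and 6.89, 10.4 and 11.1 CPM (5.16), and the floor plate genes Foxa1 and Foxa2, while Afp, Ttr, Apoa1, Hnf4a and Cer1 had at most 20 counts in any library. Of 13 tested mesoderm markers 6 were raised and 2 lowered, with log2 fold changes from -3.25 to 3.60. The largest rise was that of Meox1, at 1.42, 1.52 and 1.24 and 15.4, 18.1 and 17.4 CPM (3.60). Mesp1 and Msgn1 had at most 4 counts. Of 18 tested neural crest genes 9 were raised and 1, Foxd3, was lowered. Ednrb, an endothelin receptor of the crest, rose from 6.88, 12.2 and 12.1 to 166, 122 and 106 CPM (3.63, SE 0.21), while Sox10 had at most 24 counts. Of 11 tested surface ectoderm genes 5 were raised and 1 lowered, and Krt5, Krt14 and Trp63 had at most 17 counts. Of 7 tested endothelial and blood genes 2 were raised and 2 lowered. The summed levels of these lists with RA were 147.5 to 181.2 CPM for endoderm, 41.54 to 47.78 for mesoderm, 327.9 to 329.6 for neural crest, 181.3 to 201.9 for surface ectoderm and 18.64 to 30.52 for endothelium and blood, against 208.5 to 225, 32.6 to 34.91, 98.5 to 114.3, 118.8 to 121.7 and 29.53 to 32.55 CPM without. Those of the neuron and pluripotency lists were 407 to 433.2 and 1911 to 2463 CPM with RA and 508.4 to 574.9 and 4497 to 4602 CPM without. The part of such cells in the other changes was not tested.

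Imprinted genes, which are expressed from 1 parental copy, held several of the most abundant changed genes. Of 27 tested 12 were raised and 5 lowered. H19, a noncoding RNA, rose from 22.1, 18.9 and 23.5 to 444, 477 and 524 CPM (4.47, SE 0.094, adjusted p = 3.8e-10), and its neighbour Igf2, a growth factor gene, rose by 3.81. The growth inhibitors Cdkn1c and Phlda2, at another site of the same chromosome, rose by 2.50 and 2.78. Peg10, a gene derived from a retrotransposon, was the most abundant of the raised genes named by level, at 569, 621 and 565 CPM without and 2534, 2403 and 2448 CPM with RA (2.06, SE 0.063). The noncoding RNAs Meg3, Rian and Mirg, which come from 1 maternally expressed locus, fell (-2.04, -1.93 and -1.80). Meg3 stood at 914, 885 and 845 CPM without and 222, 226 and 203 CPM with RA. Dio3, a paternally expressed gene of that locus, rose by 3.85, and Snrpn fell by 2.06. Of 21 tested germline genes 4 were raised and 3 lowered. Besides Stra8, the homeobox genes Rhox6 and Rhox9 and the meiotic cohesin gene Rec8 rose, by 3.75, 3.30 and 2.43, while Sycp3, a protein of the meiotic chromosome axis, fell by 2.78. The near-identical copies of Rhox genes can share reads.

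Enpp2, the gene that the study followed up, encodes autotaxin, the secreted enzyme that makes lysophosphatidic acid (LPA). At 54 h it stood at 16.5, 18.0 and 18.6 CPM in untreated and 1.42, 1.61 and 1.25 CPM in RA-treated organoids (-3.64, SE 0.13, adjusted p = 8.9e-09). Every RA library was below every untreated library (two-sided exact permutation test of log2(CPM + 0.01), p = 0.1, below which 3 against 3 cannot go). Of 23 tested genes of LPA production, receptors and breakdown 4 were raised and 5 lowered. The list also holds genes of a related lipid, sphingosine phosphate, and the counts include them. Lpar4, an LPA receptor gene, fell from 109, 86.8 and 86.1 to 21.4, 16.4 and 17.3 CPM (-2.37, SE 0.12), whereas the receptor gene Lpar3 rose by 2.18 from a low level and Lpar1 differed by 0.69. The LPA-related membrane protein genes Plppr3 and Plppr5 rose by 1.78 and 4.01. The kinases Rock1 and Rock2, which drive actomyosin contraction, stood at 159.8, 116 and 108 and 149, 116 and 108 CPM without and 125, 94.5 and 93.5 and 211, 152 and 146 CPM with RA, and neither passed the test (-0.31 and 0.43).

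Genes of epithelial shape were examined next. Of 34 tested genes of apical constriction and actomyosin 5 were raised (14.7%) and 1 lowered (2.94%). Of 32 tested genes of apical polarity and lumen 4 were raised (12.5%) and 2 lowered (6.25%). The shares of all tested genes were 7.17% raised and 5.99% lowered. Shroom3, which drives apical constriction, stood at 86.0, 95.1 and 87.9 CPM without and 135, 137 and 132 CPM with RA (0.57). The small GTPase gene Rhob rose by 1.603. The polarity genes Pard3b and Crb2 rose by 2.305 and 1.598, and the junction genes Ocln and Marveld3 fell (-1.34 and -2.36). The luminal sialomucin gene Podxl differed by -0.55. Of 22 tested cadherins and adhesion genes 2 were raised and 5 lowered. Cdh1, the epithelial cadherin, fell from 376, 414 and 369 to 139, 169.6 and 189 CPM (-1.24, SE 0.095), and Epcam fell by 1.61, while Cdh2 rose as given above. Of 11 tested claudins 6 were raised and 0 lowered by edgeR (2 at an unadjusted p under 0.05, 0 by DESeq2), with Cldn4 at 16.9, 17.4 and 19.3 and 46.1, 47.8 and 51.8 CPM (1.42). Of 47 tested genes of the matrix and its receptors 15 were raised and 1, Itga1, was lowered. The basement membrane genes Lama1, Col4a2 and Col4a1 rose by 2.22, 1.98 and 1.54, and the laminin receptor gene Itga3 by 2.06. Lama1 stood at 18.1, 29.5 and 29.2 CPM without and 119.6, 125 and 118 CPM with RA. The chemokine gene Cxcl12 fell from 83.3, 80.4 and 78.7 to 6.85, 5.91 and 5.35 CPM (-3.76, SE 0.092), and its scavenging receptor gene Ackr3 rose by 1.28.

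Among the changes chosen for their size alone, several lie outside these groups. Cyp1b1, an enzyme gene that can oxidize retinol to retinal, rose from 1.28, 0.958 and 1.15 to 62.3, 83.7 and 99.8 CPM (6.17, SE 0.20). Arg1, an arginase gene, rose from 0.459, 0.319 and 0.622 to 33.8, 36.6 and 41.4 CPM (6.26, SE 0.17). Vtn, the matrix protein vitronectin, rose by 5.85, and Prdm13, a spinal cord factor, by 4.98. The hexokinase gene Hk3 and ccdc198 had 1 and 2 counts over the untreated libraries and 192 and 637 over the RA-treated libraries, ratios of 178 (95% exact interval from counting error only, 31.6 to 7060) and 295 (81.4 to 2440). On the other side, Vrtn, which helps to set the number of vertebrae, fell from 73.8, 71.5 and 69.6 to 0.154, 1.02 and 1.44 CPM (-6.35, SE 0.26). Kcnj3, a potassium channel gene, fell from 68.3, 59.0 and 58.0 to 0.462, 1.02 and 1.29 CPM (-6.06). Btla, Grm6 and Bcl11a, known from lymphocytes, retina and blood, fell (-6.33, -5.69 and -5.51). Their levels in untreated organoids were between 5.76 and 15.1 CPM. The cyclin gene Ccnd2 and the growth factor gene Mdk were among the most abundant raised genes (1.598 and 1.51), and the ubiquitin ligase gene Mkrn1 among the lowered ones (-1.51).

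Housekeeping lists held no called gene. Of 84 ribosomal protein, 75 oxidative phosphorylation, 38 proteasome and 24 cholesterol synthesis genes tested, 0 were called by edgeR's quasi-likelihood test and 0 by DESeq2. At an unadjusted p under 0.05, 61 ribosomal protein genes were lower and 0 higher with RA. The same was true of 28 and 7 oxidative phosphorylation, 15 and 2 proteasome and 20 and 1 cholesterol synthesis genes. Of 37 cell cycle genes 5 were raised, Cdkn1c and Ccnd2 among them, and 0 lowered by edgeR (7 at an unadjusted p under 0.05, 0 by DESeq2). The summed level of the ribosomal protein genes was 44640 to 49080 CPM without and 39920 to 40840 CPM with RA, with a median log2 fold change of -0.233. Of the 226 tested genes named in the text, 69 have exons that overlap those of a gene on the opposite strand, with which reads can be shared if counting was not by strand. Beside those given above, the overlap covers over 25% of the exonic bases of Cdkn1c, Gbx2, Hes5, Kcnj3, Nefl and Sycp3.

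**Figure D4:**
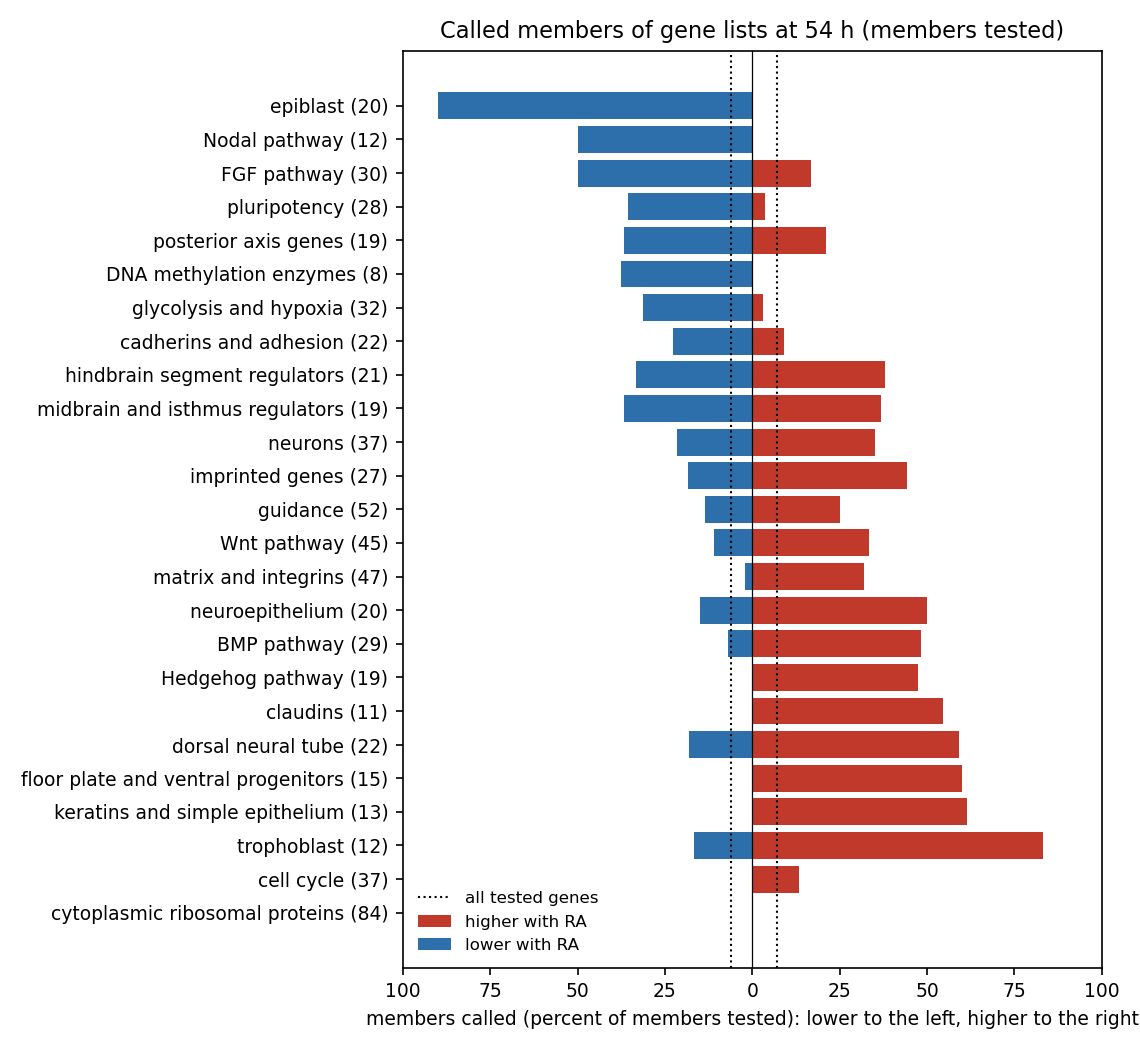
Share of tested members called at 54 h for 25 gene lists, lower with RA to the left (blue) and higher to the right (red), with the number tested in brackets. Dotted lines mark the shares of all tested genes, 5.99% lowered and 7.17% raised, and epiblast genes reach 90% on the left while ribosomal protein genes have no bar.

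The same genes were then followed at the neighbouring time points. Each time point has its own 3 untreated libraries. Of the 1177 raised genes, 857 (72.8%, and 69.3% of the raised genes of 42 h) were also raised at 42 h, and 801 (68.1%, and 66.8%) at 66 h. Of the 983 lowered genes, 656 (66.7%, and 80.1% of the lowered genes of 42 h) were lowered at 42 h and 560 (57%, and 74.3%) at 66 h. The shares of all tested genes that were lowered were 0.537% at 8 h, 2.76% at 18 h, 2.48% at 30 h and 4.03% at 78 h, and those raised 1.26%, 8.17%, 5.98% and 7.66%. Of the lowered genes 289 (29.4%) were first called lowered at 54 h and 160 (16.3%) at no other time point. The same was true of 249 (21.2%) and 83 (7.05%) of the raised genes. As 54 h was picked for its number of lowered genes, these shares are descriptions too. A first call is the crossing of a threshold and not a tested change since 42 h. Genes that RA had raised at 18 h made up 33 of the 983 lowered genes of 54 h. This is a smaller share than the 8.17% of all tested genes that were raised at 18 h. Among the named ones, Hoxb1 went from a log2 fold change of 5.19 at 18 h to -1.23 at 54 h, Cyp26b1 from 5.62 to -2.59, Pax5 from 2.51 to -2.58 and Olig3 from 1.28 to -2.56. Between these times the Cyp26b1 level rose in untreated organoids, from 0.336 CPM at 18 h to 12.4 at 54 h, and fell in treated ones, from 17.5 to 2.06 CPM.

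The difference of the RA effect between time points was tested as an interaction over 12 libraries. All libraries of 66 h belong to the later series of library numbers and all of 42 h to the earlier one. Of those of 54 h, only untreated replicate 3 is of the later series. The part of the library series in the differences to 66 h was not tested. Against 42 h, 28 genes had a higher and 57 a lower effect at 54 h, 0.162% and 0.329% of those tested at an adjusted p under 0.01. The genes with a lower effect included those of the RA-degrading enzyme Cyp26a1 and the retinaldehyde reductase Dhrs3. Cyp26a1 stood at 28.5 CPM with RA at 42 h and 8.55 at 54 h, against 3.28 and 5.25 CPM without, and Dhrs3 at 27.9 and 9.12 CPM, against 2.31 and 3.47. Hoxb1 fell from 59.1 to 23.1 CPM with RA while it rose from 32 to 53.4 CPM without. Phlda2 was among the genes with a higher effect, at 39 CPM with RA at 42 h and 63 at 54 h. Against 66 h, 109 genes had a higher and 138 a lower effect at 54 h (0.622% and 0.787%). These counts changed with the libraries left out, from 8 to 28 and 22 to 70 against 42 h and from 37 to 123 and 38 to 161 against 66 h. Genes of young neurons were among the lower ones. Dcx, a microtubule protein of migrating neurons, stood at 3.77 CPM with RA at 54 h and 17.7 at 66 h, and the guidance receptor gene Robo3 at 1.76 and 19.6 CPM. Nefm stood at 7.28 CPM with RA at 54 h and 43.6 at 66 h, against 21.6 and 19.3 CPM without. Tdgf1 stood at 15.9 CPM with RA at 54 h and 56.2 at 66 h, against 132 and 97.4 CPM without. Sfrp5 was among the higher ones, at 42.5 CPM with RA at 54 h and 7.70 at 66 h.

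**Figure D5:**
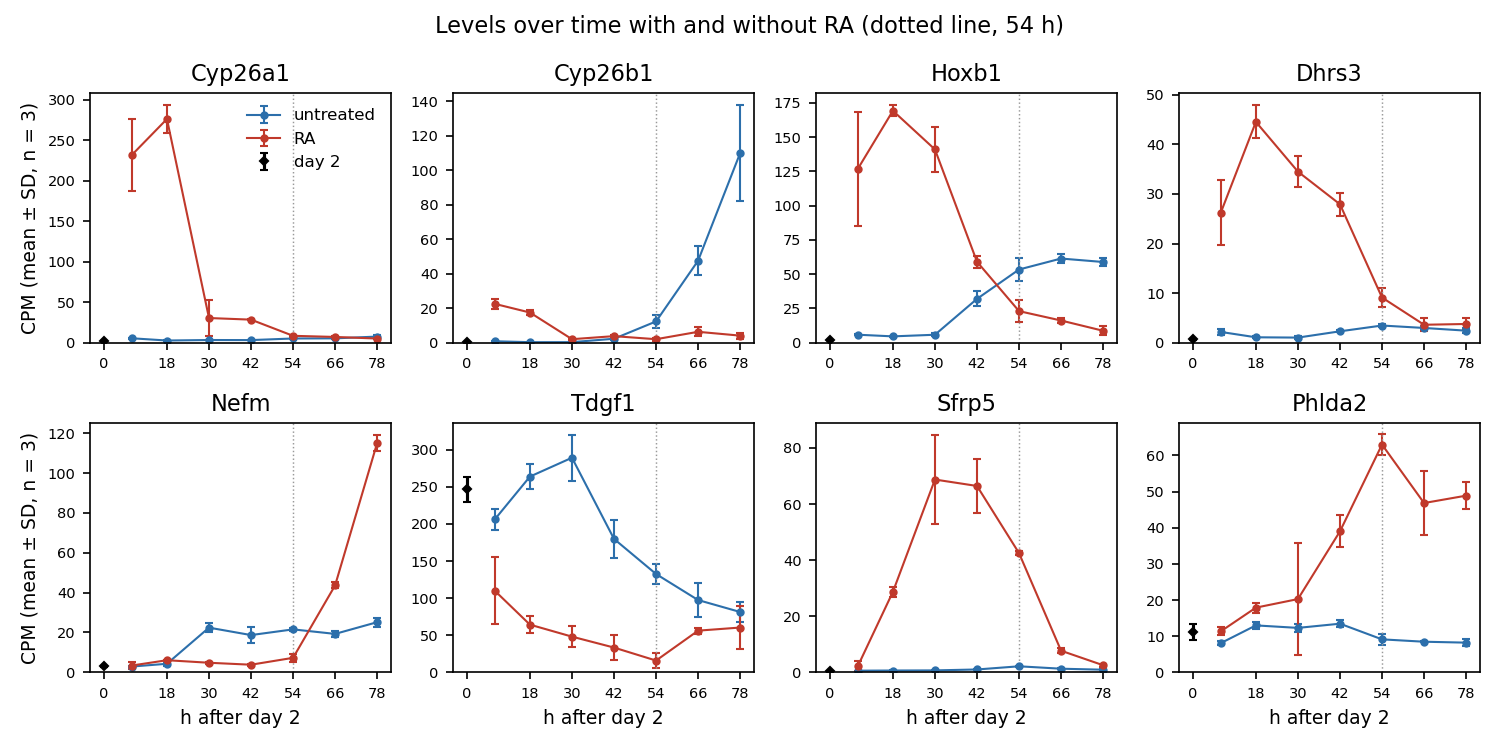
Mean level in CPM (error bars, SD, n = 3) of 8 genes by hours after day 2 in untreated (blue) and RA-treated (red) organoids, with day 2 as a black diamond and 54 h as a dotted line. The lines cross between 42 h and 54 h for Hoxb1 and between 54 h and 66 h for Nefm, while RA-treated levels of Cyp26a1 and Dhrs3 come down towards the untreated ones by 54 h.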

How the data were processed

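RNA-seq of poly(A) RNA was made from neural tube organoids. The deposited values are raw counts per gene, which per the paper's methods the authors made by trimming with Trim Galore 0.5.0, alignment to GRCm38 and counting with featureCounts (Subread 1.6.2) in Ensembl genes. Bowtie2 2.3.4.1 is also named in the processing notes. The strand setting and the treatment of reads with several matches are not given in the sources used here. The 45 columns were matched to samples by title. Groups come from the labels, and the 3 replicates of a group are independent samples, so that p-values measure the spread between these.

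Genes were kept by filterByExpr (at least 10 counts, 15 in total), TMM normalized and tested with edgeR 4.0.16 in R 4.3.3 (glmQLFit, glmQLFTest) on the 6 libraries of 54 h, with no block. Calls needed a Benjamini-Hochberg adjusted p under 0.01 and an absolute log2 fold change above 1. SE is the fold change divided by the square root of F. On simulated counts the test recovered 100% of 200 genes changed by 2 on the log2 scale among 16169, with 3 false calls. These 200 genes were drawn only from genes above a minimum mean level, so that recovery at low levels was not tested. Interactions used 12 libraries. DESeq2 1.42.0, other scalings, filters and leaving out libraries were alternatives. Counting error alone sets the printed exact intervals.

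Genes were named by rule: the 15 largest rises and falls at 54 h with a mean of at least 1 CPM and no overlap of the groups, the 5 most abundant raised and lowered genes, the first 3 and up to 10 called members of each list, the LPA genes, and the 8 genes with the largest called difference to each neighbouring time point in each direction and a mean of at least 1 CPM. Symbols beginning with Gm and a digit or ending in Rik were left out of the first and last of these. Some genes that these rules name are not reported here. A few others (genes with a DR5, DR2 or DR1, and genes discussed beside them) were named after their values were seen. Members and lists were chosen with earlier results of these data known. Lists share members, such as Hoxb4, Nkx1-2 and Stra8, so that a gene can be counted in several of them. Gene models for overlaps were those of GENCODE on GRCm38. Every pair of replicates differed by more than sampling noise.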

Additional observations from a re-analysis of the deposited data

Results flagged for a closer look

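The effect of RA at 54 h differed from that at the neighbouring time points by an interaction test (edgeR's quasi-likelihood test over 12 libraries, Benjamini-Hochberg adjusted p under 0.01), which sets these results apart for a closer look. Both comparisons share the 6 libraries of 54 h. The genes named are those with a mean of at least 1 CPM over the 12 libraries, leaving out symbols of unnamed gene models, and some larger differences were called outside these limits. Against 42 h the effect was higher at 54 h for 28 genes and lower for 57. The largest differences to the lower side, in log2 units, included those of Cyp26b1 (-3.30), Cyp26a1 (-2.42), Dhrs3 (-2.21), the orphan receptor gene Nr2f1 (-2.19), Hoxb1 (-2.10), Ednrb (-1.98) and Zfp703 (-1.80). To the higher side they were those of the small heat shock protein gene Hspb8 (1.00), the epithelial splicing factor gene Esrp2 (1.04), the noncoding RNA Miat (1.15), Zfp36l3 (1.24), Phlda2 (1.26), the Notch ligand gene Dll3 (1.34), Spon1 (1.36) and the neuronal splicing factor gene Srrm4 (1.59). Miat, Dll3, Spon1 and Srrm4 were lower with RA at 42 h (-2.19, -1.75, -1.50 and -1.52) and nearer to untreated at 54 h (-1.04, -0.41, -0.15 and 0.07). Hspb8, Esrp2, Zfp36l3 and Phlda2 had a larger positive effect at 54 h (1.52, 1.10, 1.27 and 2.78) than at 42 h (0.52, 0.06, 0.03 and 1.52).

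Against 66 h the effect was higher at 54 h for 109 genes and lower for 138. Within these limits the 8 largest differences to the lower side were those of Robo3 (-3.20), the neuronal factor gene Nhlh2 (-2.90), Nefm (-2.78), Grm6 (-2.57), Dcx (-2.47), Lrrc2 (-2.44), Cnpy1 (-2.34) and Tdgf1 (-2.30). To the higher side they included those of Nr2f1 (1.39), the malic enzyme gene Me3 (1.41), the ceruloplasmin gene Cp (1.49), the collagen gene Col12a1 (1.55), Zfp703 (1.57) and Sfrp5 (1.68). Of these, Me3 was lower with RA at 66 h (-1.78) and less so at 54 h (-0.36). Nr2f1 and Zfp703 are in both sets, with an effect at 54 h lower than at 42 h and higher than at 66 h. With RA, Nr2f1 stood at 55.1, 77.2 and 67 CPM at 42, 54 and 66 h (means of 3), and without RA at 2.23, 14.1 and 33.3 CPM.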

How the results depend on the processing

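The counts at 54 h stayed within 1.5 times of 1177 and 983 under both other scalings, DESeq2, the fits of all 45 libraries, both other filters, the prior count of 2 and every fit that left out a library (1077 to 1137 raised and 825 to 973 lowered genes). They moved with the threshold, to 4421 and 4053 genes at an adjusted p under 0.05 with no minimum fold change, and to 528 and 389 when tested against a log2 fold change of 1. Enpp2 stayed between -3.73 and -3.56 in every fit, with an adjusted p of 1e-06 or less by edgeR or DESeq2. The called members of the lists numbered 339 to 360 with 1 library left out.

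The counts of genes whose RA effect differed between time points were less stable, and the cause was not tested. Against 42 h, the 28 genes with a higher effect became 7 with a difference above 1, 109 by DESeq2, 7 with edgeR on all 45 libraries and 144 with no filter, and the 57 genes with a lower effect became 151 by DESeq2 and 283 with no filter. Against 66 h, the 109 genes with a higher effect became 27, 301, 32 and 339 under the same settings, and the 138 with a lower effect 72, 353, 78 and 543. With 1 library left out these counts ranged from 8 to 28 and from 22 to 70 against 42 h, and from 37 to 123 and from 38 to 161 against 66 h. The lowest came without untreated replicate 3 of 42 h, without untreated replicate 3 of 66 h and without RA replicate 2 of 66 h. Each library of 42 h and 66 h except untreated replicate 2 of 42 h and untreated replicate 1 of 66 h, and each of 54 h except RA replicate 1, moved at least 1 of them by more than 1.5 times. At 8 h DESeq2 raised the counts from 200 and 85 to 365 and 200.

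Samples with the same replicate number deviated together only weakly (correlations of 0.104, 0.0398 and 0.0499), and RA replicates 1, 2 and 3 correlated best with untreated replicates 1, 3 and 3, so that the numbers were not taken as pairs. With the replicate block the counts were 1133 and 941 genes at 54 h, 350 called list members and -3.64 for Enpp2, and 6 and 25 genes against 42 h and 218 and 263 against 66 h.

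Among the named genes the sign turned in values near 0: Sox2 was 0.0239 with library totals, and with 1 library left out Prokr2 ranged from -0.742 to 0.367 (positive without RA replicate 2) and Srrm4 from -0.0405 to 0.158 (negative without RA replicate 3). Calls of named genes were lost for Egr1, Fabp7, Hoxb1 and Pgk1 without RA replicate 1, for Esrp2 and Miat without RA replicate 3, for Egr1 and Miat without untreated replicate 1, for Slc16a3 without untreated replicate 2 or 3 and under DESeq2, for Cdx2 with all 45 libraries and for Miat with library totals. Calls were gained for Hoxc8 without RA replicate 1, by DESeq2 and with no filter, and for Robo3 without RA replicate 3, with no filter and by DESeq2 on all 45 libraries. Depth limits the genes under about 10 counts, which were not tested.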
